A study of Mus musculus with 31 samples.

Results

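GABA-A receptors are the target of midazolam (MDZ), and their subunit genes were followed here through 21 RNA sequencing libraries. The genes were Gabra2, Gabra4, Gabra5, Gabrb1, Gabrb2, Gabrg1 and Gabrg3. They were chosen by name, and all 7 were present in every library, among 24062 gene names in the mouse tissue tables and 24322 in the culture tables. The tables name 19 GABA-A receptor subunit genes, and the other 12 are given as a group.

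The tissue libraries came from Nestin-EGFP mice of strain C57BL/6, in which green fluorescent protein (EGFP) is placed under a Nestin promoter active in neural stem and progenitor cells. Pups received intraperitoneal MDZ at 10 mg/kg or distilled water on postnatal days 7, 8 and 9, and EGFP-positive cells were sorted from the dentate gyrus. Control P10 (water) and MDZ P10 were collected on postnatal day 10, with 50000 cells of 1 mouse in each library. Control 8w (water), MDZ 8w and RUN MDZ 8w (MDZ, then housing with a running wheel) were collected at 8 weeks, with about 30000 cells pooled from 3 to 5 mice in each library. No group of runners without MDZ was listed. The culture libraries came from wild-type ICR neural stem cells of embryonic day 11 cortex, passaged more than 20 times and grown with basic FGF and EGF. They carried the M2rtTA lentivirus alone (Control culture) or together with a lentivirus for Flag-tagged Egr1, a zinc finger transcription factor (Egr1 culture). Each of the 7 groups had 3 libraries. The labels do not say whether the culture libraries came from separate cultures, so their p-values measure the spread between samples, which may be technical.

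The GABA-A receptor is a pentameric channel gated by the transmitter GABA that lets chloride cross the membrane. Most receptors combine α, β and γ subunits. GABA binds where an α meets a β subunit, and benzodiazepines such as midazolam bind where an α meets a γ subunit and strengthen the response to GABA. Receptors built with the α4 subunit, encoded by Gabra4, are known for being insensitive to classical benzodiazepines. GABA acts on neural stem cells and young neurons of the dentate gyrus, where the internal chloride level can make it depolarizing. In bulk RNA, fewer cells of a type and less RNA per cell cannot be told apart.

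In RefSeq's GRCm38.p6 annotation, 4 of the 7 genes lie in a cluster of 1398526 bases on chromosome 5. Gabrg1 (chr5:70751047-70842617), Gabra2 (chr5:70958392-71095849) and Gabra4 (chr5:71569734-71658308) are on the minus strand, and Gabrb1 (chr5:71657921-72149572) is on the plus strand. Gabra4 and Gabrb1 lie head to head, and their annotated 5′ ends overlap by 388 bases on opposite strands. The library kit was directional, but the strand setting of the counting is not given in the sources used here, so reads in that overlap may have been given to either gene. Gabrg3 (chr7:56716463-57387215) and Gabra5 (chr7:57407669-57591016) are neighbours on the minus strand of chromosome 7, with 20453 bases between them. Gabrb2 lies on the plus strand of chromosome 11 (chr11:42419515-42632591). The α and γ genes of the chromosome 5 cluster that lie side by side, Gabrg1 and Gabra2, are 115774 bases apart.

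Gabra2 and Gabrg1 are the members whose levels moved together in the Egr1 culture comparison. Their 250 bases before the annotated start are therefore shown, 5′ to 3′ on the gene's own strand, with CpG dinucleotides in capitals. The Gabra2 window is chr5:71095850-71096099 and the Gabrg1 window is chr5:70842618-70842867, both from RefSeq on GRCm38.p6.
Gabra2: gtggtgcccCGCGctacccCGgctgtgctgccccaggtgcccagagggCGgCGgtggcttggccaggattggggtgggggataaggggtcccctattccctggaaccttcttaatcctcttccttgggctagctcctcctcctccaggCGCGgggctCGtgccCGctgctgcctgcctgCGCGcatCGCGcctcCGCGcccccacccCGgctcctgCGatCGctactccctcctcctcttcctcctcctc
Gabrg1: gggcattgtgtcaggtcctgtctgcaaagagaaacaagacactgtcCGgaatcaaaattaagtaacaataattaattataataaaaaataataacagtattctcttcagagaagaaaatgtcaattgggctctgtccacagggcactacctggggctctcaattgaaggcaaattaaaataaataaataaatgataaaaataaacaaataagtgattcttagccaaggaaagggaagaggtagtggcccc
The Gabra2 window holds 18 CpG and is 70.0% G or C, while the Gabrg1 window holds 1 CpG and is 35.6% G or C. Over 32851 such windows of the genome, the medians were 6 CpG and 52.4%. Of those windows, 9.24% were at least as rich in G and C as that of Gabra2, and 5.81% were at most as rich as that of Gabrg1. The letters of the Egr1 motif, GCGTGGGCG, searched on both strands, were in 0.536% of windows, and the looser form GCGNGGGCG, which includes it, was in 4.70%. Neither form matched in the Gabra2 or Gabrg1 window, and the looser form matched in 1 window of Gabrb2. A match or its absence describes these letters in this window and no more.

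The libraries differed in ways that bear on the values. The P10 files hold FPKM and the 8-week and culture files TPM, both scaled per transcript length, so genes can be ranked within a library, and tables of different ages were not tested against each other. Control 8w libraries listed 11163 to 11397 genes above 0, against 15382 to 16709 in the other 8-week libraries. Control 8w replicates 2 and 3 differed less than any other 8-week pair and were counted as 1 sample, so that group had n = 2. Among 10091 genes at 8 TPM or more in each of the 6 MDZ 8w and RUN MDZ 8w libraries, 152 (1.51%) were listed at 0 in all 3 Control 8w libraries and 588 (5.83%) only in its replicate 1. Snf8, a subunit of the endosomal sorting machinery that cells use widely, was among the 152, at 51.0 to 97.4 TPM in those 6 libraries, whereas none of 32 proteasome subunit genes was at 0 in any library. A listed 0 in Control 8w can therefore be a failed estimate. No mean or fold change is given for a gene at 0 in all 3 of its libraries. Where a fitted log2 difference is printed for a gene at 0 in any of them, it depends on the pseudocount and is no measure of fold. Radial glia markers (9 of 9 genes, Sox2 and Nes included) were above 0 in some library of every group. At 8 weeks pericyte and smooth muscle markers reached sums of 592 to 3463 TPM and oligodendrocyte markers 125 to 2959 TPM. RNA of other cell types was thus measured in the sorted cells too. In Control 8w replicates 1, 2 and 3, ependymal and choroid markers (5 genes, 3 at 0) summed to 0.12, 4523 and 4799 TPM. Microglia markers (5 genes) summed to 0.038, 125 and 118 TPM. Interneuron markers (8 genes, 4 at 0) went the other way, at 175, 9.65 and 7.73 TPM. Oligodendrocyte precursor markers (6 genes) did so too, at 2257, 637 and 682 TPM. Their part in the subunit values was not tested.

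The α subunit genes form the GABA and benzodiazepine sites together with their partners. Gabra2, encoding α2, was the one of these 3 α genes above 10 FPKM or TPM in every library. At P10 it measured 12.6, 10.6 and 14.0 FPKM in Control P10 and 11.2, 11.0 and 11.2 FPKM in MDZ P10. At 8 weeks it measured 27.7, 32.5 and 33.0 TPM in Control 8w, 34.0, 41.4 and 49.98 TPM in MDZ 8w, and 77.7, 53.6 and 39.5 TPM in RUN MDZ 8w. The P10 groups overlapped, whereas each MDZ 8w and RUN MDZ 8w library was above each Control 8w library. Gabra4 measured 11.4, 9.49 and 11.6 FPKM in Control P10 and 10.4, 9.80 and 10.5 FPKM in MDZ P10. At 8 weeks it was listed at 0 in all 3 Control 8w libraries, and measured 22.5, 22.0 and 20.1 TPM in MDZ 8w and 25.6, 19.8 and 25.9 TPM in RUN MDZ 8w. The exposed groups lay close to each other and apart from Control 8w.

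Gabra5, encoding the α5 subunit known from extrasynaptic receptors of the hippocampus, was the lowest of these α genes in both P10 groups, MDZ 8w and RUN MDZ 8w. It measured 0.353 to 0.406 FPKM in Control P10 and 0.386 to 0.615 FPKM in MDZ P10. At 8 weeks it was listed at 0 in each Control 8w library. It measured 1.05, 2.24 and 0 TPM in MDZ 8w and 7.56, 2.74 and 9.72 TPM in RUN MDZ 8w. Every RUN MDZ 8w library was above every MDZ 8w library.

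The β subunit genes supply the other face of the GABA site. Gabrb1 was among the highest members at P10, with 18.8, 14.0 and 15.6 FPKM in Control P10 and 12.4, 16.1 and 16.5 FPKM in MDZ P10. At 8 weeks it was listed at 0 in Control 8w replicate 1 and measured 47.2 and 39.7 TPM in the other two. MDZ 8w gave 26.8, 31.0 and 30.4 TPM, and RUN MDZ 8w gave 29.0, 19.2 and 1.98 TPM, so the lowest runner library was far below the rest of its group. Gabrb2 was lower at P10, with 1.87, 2.91 and 2.16 FPKM in Control P10 and 2.72, 2.86 and 2.48 FPKM in MDZ P10. It measured 11.0, 6.86 and 4.32 TPM in Control 8w, 14.6, 4.90 and 4.44 TPM in MDZ 8w, and 22.4, 11.2 and 16.8 TPM in RUN MDZ 8w. Each runner library was above each Control 8w library, and the other pairs of 8-week groups overlapped.

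The γ subunit genes complete the benzodiazepine site. Gabrg1 measured 16.5, 16.4 and 16.2 FPKM in Control P10, the narrowest spread of the members there relative to its level, and 13.6, 15.7 and 14.0 FPKM in MDZ P10. Every MDZ P10 library was below every Control P10 library. At 8 weeks it was listed at 0 in all 3 Control 8w libraries, and measured 17.7, 11.1 and 8.85 TPM in MDZ 8w and 29.3, 19.6 and 18.0 TPM in RUN MDZ 8w. Gabrg3 measured 0.885 to 1.16 FPKM over the 6 P10 libraries. In Control 8w it was listed at 0 in replicate 1 and measured 28.2 and 22.2 TPM in the other two, while MDZ 8w gave 2.68, 1.04 and 1.91 TPM and RUN MDZ 8w 0.608, 4.46 and 8.11 TPM. Gabrb1 and Gabrg3 had the same pattern in Control 8w, with a listed 0 in replicate 1 beside values well above 0 in replicates 2 and 3.

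**Figure D1:**
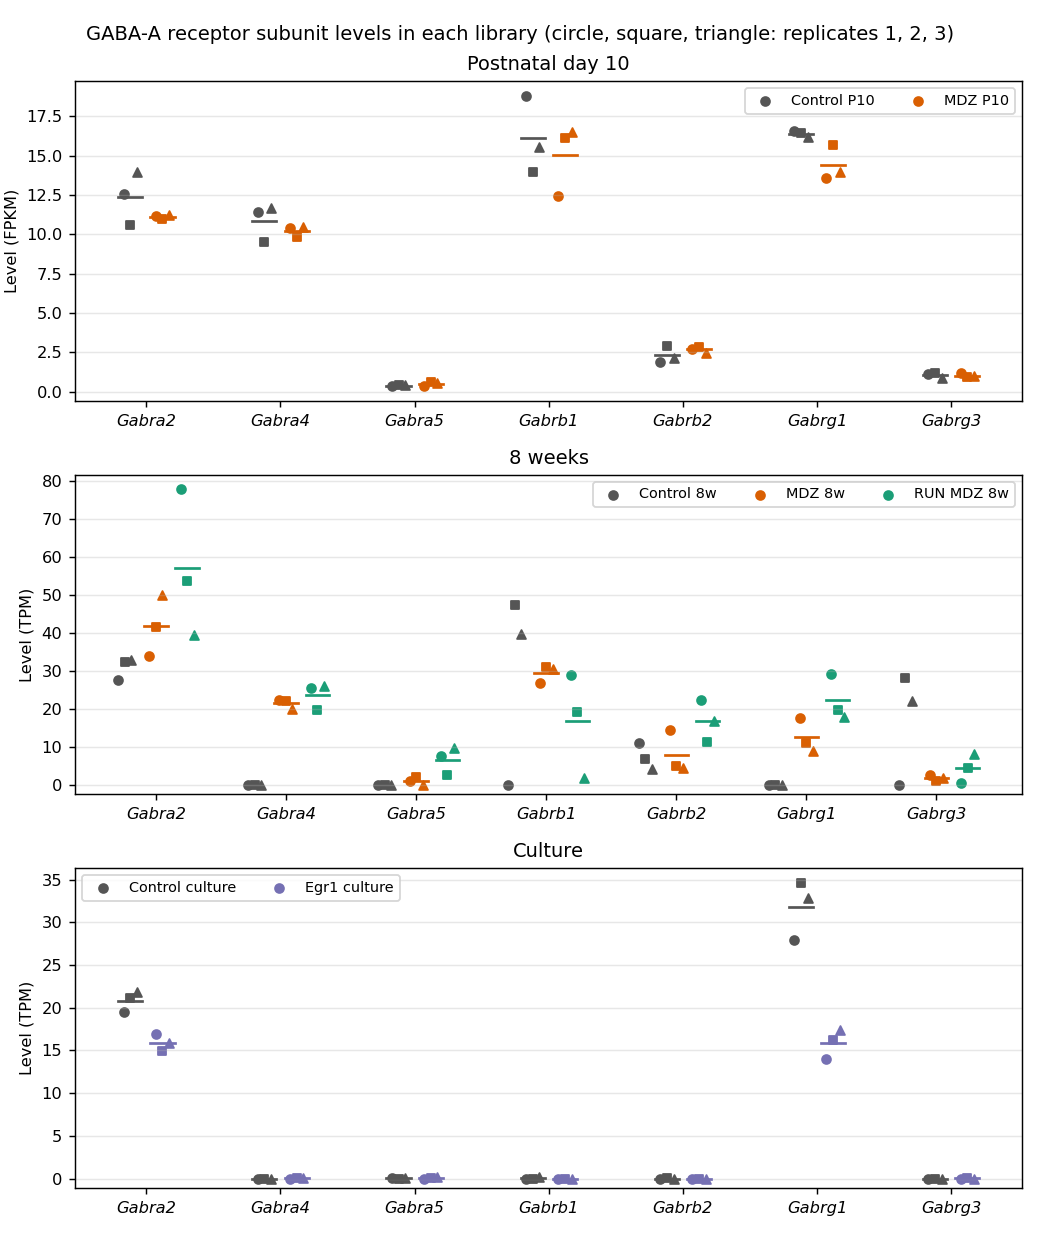
Levels of the 7 subunit genes in each library, as FPKM at P10 and TPM at 8 weeks and in culture, with 1 point per library, marker shape for the replicate number and a line at the group mean except in Control 8w. Gabra4 and Gabrg1 are listed at 0 in all 3 Control 8w libraries and lie at 8.85 TPM or above in the other 8-week libraries, and only Gabra2 and Gabrg1 rise above 0.19 TPM in culture.

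Ranked by mean level, Control P10 ran from Gabrg1 at 16.4 ± 0.19 FPKM (SD, n = 3) and Gabrb1 at 16.1 ± 2.47 through Gabra2 at 12.4 ± 1.70 and Gabra4 at 10.9 ± 1.19. Neighbours among those 4 overlapped in their library values. Gabrb2 at 2.31 ± 0.54, Gabrg3 at 1.05 ± 0.15 and Gabra5 at 0.387 ± 0.029 FPKM followed, and each step down from Gabra4 was without overlap. MDZ P10 had the same order except that Gabrb1 (15.02 ± 2.24 FPKM) and Gabrg1 (14.4 ± 1.11 FPKM), which overlapped, changed places. The top 4 were the members of the chromosome 5 cluster in both P10 groups.

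MDZ 8w ran from Gabra2 at 41.8 ± 7.99 TPM (SD, n = 3) to Gabrb1 at 29.4 ± 2.26 and Gabra4 at 21.5 ± 1.24 TPM, with no overlap between these neighbours. Gabrg1 at 12.6 ± 4.62 and Gabrb2 at 7.97 ± 5.73 TPM overlapped, as did Gabrg3 at 1.87 ± 0.82 and Gabra5 at 1.10 ± 1.12 TPM. In RUN MDZ 8w, Gabra2 led at 56.9 ± 19.4 TPM (SD, n = 3) and lay apart from Gabra4 at 23.8 ± 3.42 TPM. All further neighbours in that group overlapped, in the order Gabrg1 (22.3 ± 6.11), Gabrb2 (16.8 ± 5.58), Gabrb1 (16.7 ± 13.7), Gabra5 (6.67 ± 3.57) and Gabrg3 (4.39 ± 3.75 TPM). Gabra2 and Gabrb2 were the members above 0 in every Control 8w library, at 30.2 ± 3.55 and 8.32 ± 3.86 TPM (SD, n = 2). In Control 8w replicates 2 and 3, Gabrb1 was above Gabra2.

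As shares of the summed level of the 7 genes, Control P10 held 27.6% Gabrg1, 27.0% Gabrb1, 20.7% Gabra2 and 18.2% Gabra4, and MDZ P10 held 26.2%, 27.2%, 20.3% and 18.6%. In MDZ 8w the same genes took 10.8%, 25.3%, 36.0% and 18.5%, and in RUN MDZ 8w 15.1%, 10.5%, 38.1% and 16.7%. Gabrb2 took 6.78% in MDZ 8w and 11.4% in RUN MDZ 8w. In Control 8w replicate 1, Gabra2 took 71.5% and Gabrb2 the other 28.5%. In its replicates 2 and 3, Gabrb1 took 41.2% and 40.0%, Gabra2 28.3% and 33.3%, and Gabrg3 24.6% and 22.4%. Control 8w replicates 2 and 3 were therefore alike in make-up and replicate 1 was unlike them. All 3 were unlike the other groups.

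**Figure D2:**
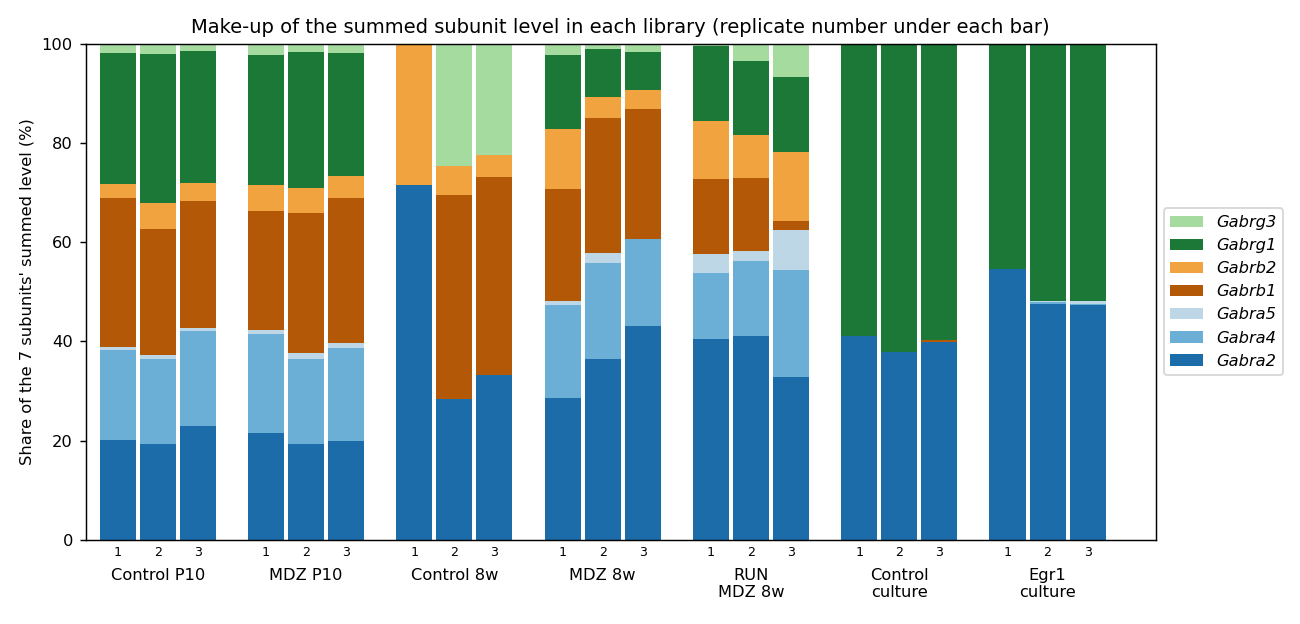
Share of each subunit gene in the summed level of the 7 genes (percent), with 1 bar per library grouped by group and the replicate number under it. The P10 bars are alike, the Control 8w bars differ from each other, and culture bars hold almost only Gabrg1 and Gabra2, with Gabrg1 at 60.3% in Control culture and 49.6% in Egr1 culture on average.

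The 12 other subunit genes summed to 16.8 ± 3.36 FPKM in Control P10 and 17.7 ± 0.77 FPKM in MDZ P10 (SD, n = 3), so the 7 members made up 78.0% and 75.7% of all subunit RNA. At 8 weeks the other genes summed to 89.5 to 114 TPM in Control 8w, 79.5 ± 22.4 TPM in MDZ 8w and 135 ± 48.1 TPM in RUN MDZ 8w (SD, n = 3). The members' share was 25.4%, 51.6% and 52.6% in the Control 8w libraries, 59.9% in MDZ 8w and 52.9% in RUN MDZ 8w. Exposed and unexposed groups were thus below their share at P10, although the ages come from separately normalized tables.

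The comparison of MDZ P10 with Control P10 asks what the exposure left in the transcripts 1 day after the last injection. No member passed limma's test at an adjusted p below 0.05. The test ran on log2(value + 1) over 12914 genes with a mean of at least 1, of which 0.00774% were called, and 6 members entered it. Gabrg1 had the smallest p, with a log2 change of -0.18 ± 0.062 (SE), an unadjusted p of 0.0205 and an adjusted p of 0.337. It was lower in 3 of 3 MDZ P10 libraries than in any Control P10 library, a pattern found in 6.61% of all genes tested. Gabra2 changed by -0.13 ± 0.089 (adjusted p = 0.582) and Gabrb2 by 0.17 ± 0.12 (adjusted p = 0.600, both limma), with overlapping groups. Gabra4, Gabrb1 and Gabrg3 had log2 differences of -0.074, -0.096 and -0.017, and Gabra5, with a mean below 1, was not tested. The median log2 difference of the 6 tested was -0.085, beside 0.015 over all genes.

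Summed pericyte and smooth muscle markers (6 genes) also lay apart at P10, at 186 to 224 FPKM in Control P10 and 140 to 165 FPKM in MDZ P10. Summed mature neuron markers (8 genes) were 114 to 123 against 108 to 113 FPKM, interneuron markers (8 genes) were 7.07 to 9.09 against 6.34 to 6.70 FPKM, and microglia markers (5 genes) were 5.06 to 6.07 against 4.48 to 4.92 FPKM. Radial glia markers (9 genes) overlapped, at 1912 to 2511 against 1928 to 2031 FPKM. No gene of these lists was at 0 in all libraries of a P10 group. Their part in the Gabrg1 values was not tested. Relative to the deepest P10 library, Control P10 libraries had depths of 0.571 to 0.811 and MDZ P10 libraries of 0.728 to 1.00.

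At 8 weeks, MDZ 8w against Control 8w asks what remained in adult cells of mice exposed as pups. Gabra4 and Gabrg1 passed limma's test as higher in MDZ 8w (adjusted p = 0.00264 and 0.00883), 2 of the 7 members tested, beside 5.13% of 15264 genes called, 4.68% higher and 0.452% lower. Both calls set measured values against a listed 0 in every Control 8w library. They were among the 152 of 10091 genes described above, a count whose 8 TPM limit was chosen after the Gabrg1 values were seen. Without Control 8w replicate 1, which leaves that group 1 sample assumed to vary like the others, the adjusted p was 0.000205 for Gabra4 and 0.00233 for Gabrg1.

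Neither call held under all settings. With library quality weights the limma adjusted p was 0.112 for Gabra4 and 0.403 for Gabrg1. The Gabrg1 call was also lost with quantile normalization (adjusted p = 0.189) and without MDZ 8w replicate 1 (adjusted p = 0.0646), the library with its highest MDZ 8w level.

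Gabra2 was higher in 3 of 3 MDZ 8w libraries than in any Control 8w library, as were 26.2% of all genes tested, but its log2 change of 0.44 ± 0.35 (SE) did not pass (limma adjusted p = 0.480). The median gene was itself shifted by 0.36, and by -0.055 after quantile normalization. Relative to the shift in each setting, Gabra2 stood 0.44 against 0.36 and 0.27 against -0.055. Gabrb2 changed by -0.17 ± 0.66 (limma adjusted p = 0.917), and 0.27 without Control 8w replicate 1. Gabra5, Gabrb1 and Gabrg3 did not pass, with limma adjusted p-values of 0.490, 0.433 and 0.737. Without Control 8w replicate 1, the log2 difference of Gabrg3 was -3.23 (limma adjusted p = 0.0539) and that of Gabrb1 was -0.55 (limma adjusted p = 0.761). These 2 genes thus turned on the library in which both were listed at 0.

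Marker sums moved along with this comparison. Radial glia markers (9 genes) summed to between 2139 and 2413 TPM in Control 8w, between 3333 and 4968 TPM in MDZ 8w, and between 3109 and 3546 TPM in RUN MDZ 8w. Mature astrocyte markers (7 genes) summed to 932 to 1272, 1763 to 2050 and 2491 to 3020 TPM in the same order, and progenitor and neuroblast markers (9 genes) to 4572 to 4929, 2693 to 3907 and 2803 to 3071 TPM. Pericyte and smooth muscle markers (6 genes) summed to between 2333 and 3463 TPM in Control 8w and between 592 and 1283 TPM in MDZ 8w, and endothelial markers (6 genes) to between 269 and 320 and between 205 and 239 TPM. Each gene of these lists was above 0 in at least 1 library of every 8-week group. Their part in the subunit values was not tested.

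RUN MDZ 8w against MDZ 8w asks whether running altered the exposed cells, and none of the 7 members passed limma's test, beside 0.157% of all genes. Gabra5 had the smallest p, at a log2 difference of 1.90 ± 0.66 (SE), an unadjusted p of 0.0208 and an adjusted p of 0.373. It was higher in 3 of 3 runner libraries than in any MDZ 8w library. Gabrg1 also lay apart in that direction, with 0.80 ± 0.49 (limma adjusted p = 0.698). A separation of this kind was found in 14.4% of all genes. Gabrb2 had 1.12 ± 0.59 (limma adjusted p = 0.608), Gabra2 0.40 ± 0.31 (limma adjusted p = 0.791) and Gabra4 0.13 ± 0.41 (limma adjusted p = 0.992). Gabrb1 had -1.32 ± 1.39 and Gabrg3 0.63 ± 1.21, differences smaller than their errors. The median over the 7 was 0.63, beside 0.050 over all genes. Oligodendrocyte markers (5 genes) summed to between 125 and 674 TPM in MDZ 8w, and between 1843 and 2959 TPM in the runners, endothelial markers (6 genes) to 205 to 239 and 637 to 784 TPM, and pericyte and smooth muscle markers (6 genes) to 592 to 1283 and 2139 to 3025 TPM. Ependymal and choroid markers (5 genes) summed to 26.7 to 66.4 and 203 to 3962 TPM, and the mature astrocyte sums given above also lay apart. No marker of these lists was at 0 in all 3 libraries of either group, and their part was not tested.

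RUN MDZ 8w against Control 8w shares libraries with both comparisons above, so it is no separate evidence. Gabra4 (adjusted p = 0.00198), Gabrg1 (adjusted p = 0.00336) and Gabra5 (adjusted p = 0.0482) passed limma's test as higher, all against listed zeros, beside 11.3% of all genes called and 9.41% called higher. Without Control 8w replicate 1 the limma adjusted p was 0.000178, 0.000779 and 0.0692. With only those 2 groups fitted, no member passed and the limma adjusted p was 0.0845 for Gabra4 and for Gabrg1 and 0.18 for Gabra5. Quality weights also ended all 3 calls (limma adjusted p = 0.110, 0.256 and 0.645 in the same order), and quantile normalization ended those of Gabrg1 (0.0510) and Gabra5 (0.735). The Gabra5 call was further lost with a pseudocount of 5 (0.0771), with no filter (0.0524) and without any one MDZ 8w library or RUN MDZ 8w replicate 1 or 3 (0.0685 to 0.103). Gabra2 had a log2 difference of 0.84 ± 0.35 (limma adjusted p = 0.171) and Gabrb2 0.95 ± 0.66 (limma adjusted p = 0.365), beside a median gene at 0.51. Both lay above Control 8w in 3 of 3 runner libraries, as did 23.0% of all genes tested. The oligodendrocyte sum was 167 to 235 TPM in Control 8w (Mobp at 0), and it and the radial glia, astrocyte, neuroblast and endothelial sums given above lay apart between these groups, with their part not tested.

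**Figure D3:**
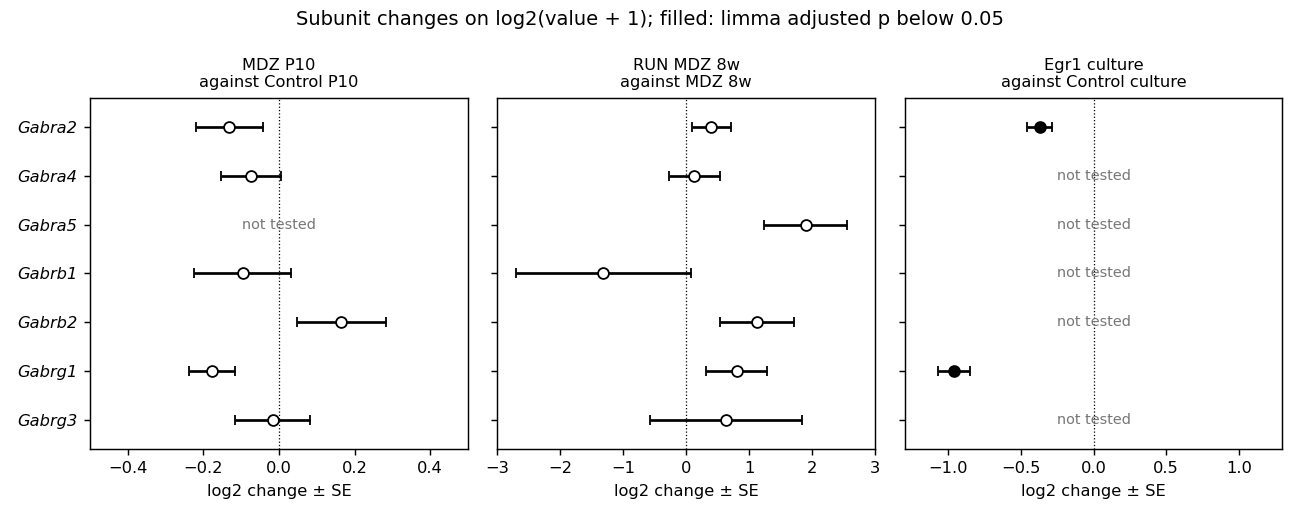
Log2 change ± SE of each tested subunit gene on log2(value + 1) for MDZ P10 against Control P10, RUN MDZ 8w against MDZ 8w and Egr1 culture against Control culture, with a separate horizontal scale in each panel. Filled points passed limma's test at an adjusted p below 0.05: only Gabra2 (-0.37) and Gabrg1 (-0.96) in culture did. Comparisons with Control 8w are left out because of its listed zeros.

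The cultures test what added Egr1 does to neural stem cells. Egr1 itself measured 330 ± 40.0 TPM in Control culture and 1483 ± 252 TPM in Egr1 culture (SD, n = 3). Of the 7 subunit genes, only Gabra2 and Gabrg1 were above 0.19 TPM in any culture library. Gabra4 and Gabrg3 were listed at 0 in all 3 Control culture libraries, and Gabrb1 and Gabrb2 in all 3 Egr1 culture libraries, and the 5 low genes were not tested. Both β subunit members were thus near 0 here. In the sorted cells the lowest Gabrb2 values were 1.87 FPKM at P10 and 4.32 TPM at 8 weeks. Gabrb1 there was at 12.4 FPKM or above at P10. At 8 weeks it was listed at 0 in Control 8w replicate 1 and was at 1.98 TPM or above in the other libraries. The 12 other subunit genes summed to 4.13 ± 0.52 TPM in Control culture and 2.79 ± 0.27 TPM in Egr1 culture, so the members made up 92.7% and 91.9% of subunit RNA.

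Gabrg1 measured 27.9, 34.6 and 32.9 TPM in Control culture and 14.0, 16.2 and 17.4 TPM in Egr1 culture. The groups lay apart, and the log2 change was -0.96 ± 0.11 (SE, limma adjusted p = 0.000176). Gabra2 measured 19.5, 21.1 and 21.9 TPM in Control culture and 16.9, 14.9 and 15.8 TPM in Egr1 culture, also apart, with a log2 change of -0.37 ± 0.086 (SE, limma adjusted p = 0.00835). Both were lower in 3 of 3 Egr1 culture libraries than in any control library. In this comparison 44.2% of the 12402 genes tested were called, 29.0% lower and 15.2% higher, and 37.1% lay apart as lower, so a fall alone was common.

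Scaling moved the split of calls over all genes, from 1888 higher and 3598 lower to 2776 higher and 2721 lower with median-of-ratios scaling. Both members stayed lower and past the threshold under it, at -0.26 for Gabra2 (limma adjusted p = 0.0239) and -0.85 for Gabrg1 (limma adjusted p = 0.000784). The median gene stood at -0.098 without it and 0.0053 with it.

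The ratio of Gabrg1 to Gabra2 does not depend on such scaling. It was 1.44, 1.64 and 1.502 in Control culture and 0.828, 1.09 and 1.10 in Egr1 culture. The log2 ratio was 0.61 lower in Egr1 culture, with no overlap, and an exact two-sided permutation test gave p = 0.1, the smallest that 3 libraries against 3 allow. In Control culture Gabrg1 (31.8 ± 3.47 TPM) lay above Gabra2 (20.8 ± 1.23 TPM) without overlap, while in Egr1 culture they overlapped at 15.9 ± 1.70 and 15.9 ± 1.01 TPM (SD, n = 3).

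Marker sums differed between the cultures too. Radial glia markers (9 genes) summed to 5640 to 6095 TPM in Control culture and 4981 to 5225 TPM in Egr1 culture, and mature astrocyte markers (7 genes, Gjb6 at 0 in both groups) to 506 to 533 and 346 to 383 TPM. Progenitor and neuroblast markers (9 genes, Dcx and Tbr1 at 0 in Control culture) summed to 36.6 to 43.6 and 171 to 208 TPM. Mature neuron markers (8 genes) summed to 246 to 296 and 305 to 377 TPM, and oligodendrocyte precursor markers (6 genes, Sox10 at 0 in Control culture and Neu4 in Egr1 culture) to 499 to 515 and 329 to 381 TPM. The oligodendrocyte, microglia, endothelial, pericyte and ependymal sums also lay apart, each below 20 TPM in every culture library. Their part in the 2 falls was not tested.

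Proteins that hold, assemble and move the receptor were taken as a list of 21 genes. No gene of it passed limma's test in any of the tissue comparisons, with 20 tested at P10 and 21 at 8 weeks. At an unadjusted p below 0.05 there were 2 at P10, 1 for MDZ 8w and 3 for RUN MDZ 8w against Control 8w, and 0 for RUN MDZ 8w against MDZ 8w. Over all genes tested the shares at that threshold were 12.2%, 22.8%, 27.2% and 9.98% in the same order. Gphn, encoding the scaffold gephyrin, had a log2 difference of 0.049 ± 0.063 at P10 and -0.42 ± 0.26 for MDZ 8w against Control 8w (limma adjusted p = 0.785 and 0.380). The list's median was 0.033 at P10 and -0.15 for MDZ 8w against Control 8w, beside 0.015 and 0.36 over all genes.

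In culture, 3 of the 17 genes tested from this list rose, 7 fell and 7 did not pass. Over all genes tested, 15.2% were called higher and 29.0% lower. Gabarapl1, of the GABARAP family that takes part in autophagy and receptor traffic, rose from 124 to 210 TPM (log2 change 0.75 ± 0.053). Among those that fell, Hap1, a huntingtin-associated protein in receptor recycling, went from 35.4 to 17.1 TPM (-1.01 ± 0.085) and Lhfpl4, a receptor partner at inhibitory synapses, from 14.7 to 7.09 TPM (-0.96 ± 0.13). Nlgn2, the adhesion protein of inhibitory synapses, had -0.52 ± 0.12, and Plcl1, which binds GABARAP and the receptor, had -0.51 ± 0.13. The largest limma adjusted p among these 5 was 0.0102. The list's median was -0.15, beside -0.098 over all genes.

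Some benzodiazepines also bind Tspo, the translocator protein of the outer mitochondrial membrane, and Dbi encodes a protein that displaces benzodiazepines from their site. Neither passed limma's test at P10, for MDZ 8w against Control 8w or for RUN MDZ 8w against MDZ 8w, with 0, 1 and 0 of the 2 at an unadjusted p below 0.05, beside 12.2%, 22.8% and 9.98% of all genes. Dbi passed for RUN MDZ 8w against Control 8w, at 1325, 1558 and 1096 TPM against 345, 802 and 798 TPM (log2 change 1.32 ± 0.35, limma adjusted p = 0.0480). That call was lost without Control 8w replicate 1, at 0.71 (limma adjusted p = 0.0812), and under most other alternatives, up to a limma adjusted p of 0.498 with quality weights. In culture Tspo rose from 5.90 to 12.3 TPM (0.99 ± 0.19, limma adjusted p = 0.00308), whereas Dbi, at 2109 and 2066 TPM, had a log2 difference of -0.030 ± 0.065 (limma adjusted p = 0.735). Of all genes tested, 9.41% were called higher for RUN MDZ 8w against Control 8w and 15.2% in culture.

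Of the 8 genes for making, taking up and breaking down GABA, none of 6 tested passed at P10, and none of 8 passed for MDZ 8w against Control 8w or for RUN MDZ 8w against MDZ 8w. At an unadjusted p below 0.05 there were 2, 5 and 1, beside 12.2%, 22.8% and 9.98% of all genes. For RUN MDZ 8w against Control 8w, 3 of the 8 passed as higher, beside 9.41% of all genes. Slc6a11, encoding the glial GABA transporter GAT-3, measured 50.3, 52.3 and 53.6 TPM in Control 8w, 108, 115 and 94.6 TPM in MDZ 8w and 142, 229 and 154 TPM in RUN MDZ 8w. Its groups did not overlap, and its log2 change was 1.71 ± 0.25 in runners against Control 8w (limma adjusted p = 0.00632) and 1.02 ± 0.25 for MDZ 8w (limma adjusted p = 0.0570). Aldh5a1, which degrades the GABA breakdown product succinic semialdehyde, had 1.88 ± 0.39 (limma adjusted p = 0.0240) in runners against Control 8w. Gad2, a GABA-synthesizing enzyme, also passed (limma adjusted p = 0.0473), at 2.43, 11.1 and 12.2 TPM against 0.026, 0.16 and 0 TPM. The 3 calls were lost with quality weights (limma adjusted p = 0.319, 0.446 and 0.637) and with only the 2 groups fitted (0.0846, 0.148 and 0.194). That of Gad2 was lost under most alternatives, and its sign reversed with quantile normalization (-0.49, limma adjusted p = 0.747). That sign is not the one of the listed values, since each runner library was above each Control 8w library for Gad2. The Aldh5a1 call was also lost with quantile normalization (0.0978) and without MDZ 8w or RUN MDZ 8w replicate 1 or 3 (0.0567 to 0.0664). The list's median was 1.79, beside 0.51 over all genes.

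In culture, Abat, the GABA transaminase, fell from 38.9 to 16.1 TPM (-1.22 ± 0.083, limma adjusted p = 9.28e-06). Aldh5a1 fell by less (-0.32 ± 0.097, limma adjusted p = 0.0250), and Gad1 rose from 4.50 to 6.39 TPM (0.43 ± 0.12, limma adjusted p = 0.0195). The Gad1 call was lost without Control culture replicate 2 or Egr1 culture replicate 1 or 2 (limma adjusted p = 0.0537 to 0.0694), and that of Aldh5a1 without Control culture replicate 3 or Egr1 culture replicate 2 or 3 (0.0610 to 0.0898). The other 2 of the 5 tested did not pass. Over all genes tested in culture, 44.2% were called, 29.0% lower and 15.2% higher. Neither the GABA-B receptor genes nor the chloride transporters Slc12a2, which brings chloride in, and Slc12a5, which takes it out, passed in any of the 5 comparisons. At an unadjusted p below 0.05 there was 1 GABA-B gene for MDZ 8w and for RUN MDZ 8w against Control 8w, and 1 transporter, Slc12a2, for RUN MDZ 8w against MDZ 8w (log2 difference 0.43 ± 0.18, limma adjusted p = 0.476). The shares of all genes at that threshold were 22.8%, 27.2% and 9.98%. Slc12a2 was the higher of the transporters in all 21 libraries: at P10 it measured 18.5 to 29.0 FPKM against 0.738 to 1.47 FPKM for Slc12a5.

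Of the 12 other subunit genes, 3 were tested at P10, 9 at 8 weeks and 1 in culture. None passed limma's test at P10, for MDZ 8w against Control 8w or for RUN MDZ 8w against MDZ 8w, with 0, 2 and 2 at an unadjusted p below 0.05, beside 12.2%, 22.8% and 9.98% of all genes. For RUN MDZ 8w against Control 8w 1 of 9 passed as higher, beside 9.41% of all genes. In culture the 1 tested passed as lower, beside 29.0% of all genes. The median log2 difference of the other subunit genes tested was 0.097 at P10 and 0.16 for MDZ 8w against Control 8w. It was 1.02 for RUN MDZ 8w against MDZ 8w and 0.49 for RUN MDZ 8w against Control 8w. Over all genes the medians were 0.015, 0.36, 0.050 and 0.51 in the same order.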

How the data were processed

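The authors' deposited P10 files hold FPKM values and their deposited 8-week and culture files TPM values. These units were read from the values, since 8-week and culture libraries sum to 1000000. The submitters' processing notes name the build mm10 and the tools TopHat, Bowtie2 and DESeq2, without role. Depth was recovered only in relative terms at P10 and in culture. Here, limma-trend (limma 3.58.1, R 4.3.3) was fitted to log2(value + 1) for all genes with a mean of at least 1, with Benjamini-Hochberg adjustment and a threshold of 0.05. Such fold changes understate those of low genes. The 8-week fit used all 8-week samples with one estimate of spread. Shares, orders and sequences were computed in Python 3.11.15. No label says that a replicate number marks a shared animal, litter or day, so the main fits did not pair samples by it. Members, lists and the rule for named genes (all members, up to 6 called genes of a list, 2 genes most like each member) were chosen with earlier results of these data known. Alternatives were other pseudocounts, filters, scalings, weights, blocks and left-out libraries. The rule also covered the 12 other subunit genes, which are given only as a group, and 1 called gene of a list is not reported here. The 10 chromatin samples of the 31 listed were not analysed here. Scripts' tests were checked on simulated data.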

Additional observations from a re-analysis of the deposited data

Results flagged for a closer look

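Gabrg1 lay on opposite sides of its controls in MDZ libraries at the 2 ages. At P10 each MDZ library was below each control library, with a log2 difference of -0.18 that did not pass limma's test (adjusted p = 0.337). At 8 weeks each MDZ library was above each Control 8w library, where the gene was listed at 0 in all 3, zeros that can be failed estimates. The difference between the ages was not tested, because the tables were normalized separately in different units.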

How the results depend on the processing

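In culture both calls, Gabra2 and Gabrg1, held under every alternative run. At P10 no member passed under any. The count of all genes past the threshold at P10, 1, became 2 with a pseudocount of 5, 4 with a mean of at least 5 or quantile normalization, 5 with quality weights and 0 with median-of-ratios scaling or the replicate block, and ran from 0 to 101 with 1 library left out (101 without Control P10 replicate 2). For MDZ 8w against Control 8w, 783 became 1410 and 461 with pseudocounts of 0.1 and 5, 152 with quantile normalization (members 1), 19 with quality weights (members 0) and 1787 with Control 8w replicates 2 and 3 kept apart. With 1 library left out it ran from 207 to 2928, highest without Control 8w replicate 1, and members from 1 to 2. For RUN MDZ 8w against MDZ 8w, 24 became 432 with weights, 122 with the replicates kept apart, 360 with only the 2 groups and 0 to 275 with 1 library left out. For RUN MDZ 8w against Control 8w, 1727 became 406 with quantile normalization (278 higher and 128 lower, against 1437 and 290; members 1), 0 with weights or only the 2 groups (members 0 in both), 2904 with the replicates kept apart and 910 to 3952 with 1 library left out. The replicate block, fitted at 8 weeks with Control 8w replicates 2 and 3 kept apart (added after seeing the data), gave 1227, 14 and 2595 in the 3 comparisons, and it changed no member's call, but ended those of Dbi, and in culture of Gad1 and Aldh5a1. Same-numbered libraries of different groups correlated between -0.077 and 0.13 in their deviations, and differently numbered ones between -0.216 and 0.165.

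Fitted differences of genes listed at 0 in Control 8w libraries (Gabra5, Gabrb1, Gabrg3 and Gad2) are no measure of fold. They are given for their sign, except with quantile normalization. There Gabra5 for MDZ 8w and Gad2 for runners came out negative, although no library of those groups was listed below any Control 8w library. Signs that reversed belonged to results that had not passed, apart from Gad2 (-0.49 for runners against Control 8w with quantile normalization). At P10, with 1 library left out, Gabrb1 ran from -0.19 to 0.026 (positive without replicate 1 of either group) and Gabrg3 from -0.076 to 0.021 (positive without Control P10 replicate 1 or 2 or MDZ P10 replicate 2). For MDZ 8w, Gabrg3 became 0.22 with a pseudocount of 0.1, Gabra5 -0.90 with quantile normalization, and, with 1 library left out, Gabrb1 ran from -0.55 (without Control 8w replicate 1) to 2.25 and Gabrb2 from -0.65 to 0.27 (positive without that library or MDZ 8w replicate 2 or 3). For runners against Control 8w, Gabrg3 became 0.91 with a pseudocount of 0.1 and ran from -2.60 to 0.46 (without RUN MDZ 8w replicate 1). There Gabrb1 became -0.27 and Gabrb2 -0.14 with quantile normalization, and Gabrb1 -0.039 with the replicates kept apart, blocked or not, and ran from -1.87 (without Control 8w replicate 1) to 1.89. As shares of all subunits, the members with the highest mean share had 21.5% (Gabrg1, Control P10), 20.6% (Gabrb1, MDZ P10), 17.1%, 21.8% and 20.4% (Gabra2 at 8 weeks in controls, where Gabrb1 led in replicates 2 and 3, exposed mice and exposed runners) and 55.9% (Gabrg1, Control culture). The causes were not tested. Depth at 8 weeks could not be recovered, and Control 8w rests on 2 samples.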

Other observations

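Over 20 samples, among 11786 genes averaging 1 or more in every table, the genes whose pattern was most like each member were found by Pearson's r of log2 levels rescaled to a common total. The points share libraries within 3 experiments, so r mostly follows differences between experiments and the listed zeros of Control 8w, and it is given as a description. The leading genes were Eea1 (0.950) and Dcp1a (0.949) for Gabra2, Plekhn1 (0.982) and Fbxo8 (0.977) for Gabra4, and Ispd (0.923) and Ifngr1 (0.890) for Gabra5. They were Rnf123 (0.973) and Abcd2 (0.966) for Gabrb1, and Cntn1 (0.992) and Arsb (0.991) for Gabrb2. For Gabrg1 they were Raver2 (0.979) and Mdga2 (0.975), and for Gabrg3 9330102E08Rik (0.943) and Tmem115 (0.937). Of the members, only Gabra2 and Gabrg1 averaged 1 or more in every table, so the others could not be listed. Neither was among the 2 leading genes of another member.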
